A study of Homo sapiens with 24 samples.

Results

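Genes for 6 subunits of the SWI/SNF chromatin remodelling complexes (SMARCA4, SMARCA2, ARID1A, ARID1B, SMARCD3 and DPF3) were examined as chromatin loci in RD, an established human line of fusion-negative rhabdomyosarcoma, whose cells resemble skeletal muscle halted before maturity. All peaks that overlapped a fixed window around each gene in build hg19 were taken as members. The windows were chr19:11020001-11220000 for SMARCA4, chr9:1960001-2240000 for SMARCA2, chr1:26970001-27160000 for ARID1A, chr6:157050001-157580000 for ARID1B, chr7:150890001-151020000 for SMARCD3 and chr14:73040001-73410000 for DPF3. They held 546 of the 564552 peaks in 14 peak lists, which merged into 282 of 289049 regions. A region here is a run of overlapping peaks of 1 antibody, merged over its libraries. The windows contain neighbouring sequence as well as the named genes, and the peaks were not assigned to exons, introns or start sites.

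Chromatin immunoprecipitation followed by sequencing (ChIP-seq) had been run on RD cells labelled control or TWIST2 KD (knockdown) with antibodies to H3K27ac, MYOD and BRG1, with 2 libraries per antibody and group. A Ty1 antibody was used on 2 libraries of cells with 3xTy1-TWIST2, a tagged form of TWIST2, and these have no comparison group. The means of knockdown and of tagging, and the agents or times used, are not given in the labels. Input libraries made up the other 10 of the 24 samples and were not used here. H3K27ac, MYOD and Ty1 belong to a set named RD-1 and BRG1 to a set named RD-2, so BRG1 and the other antibodies were not measured in 1 set. All libraries come from 1 cell line, and nothing says that the 2 libraries of a group came from separate cultures, so their spread may be technical. No expression values were used here, so the line could not be checked against its marker genes.

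SWI/SNF complexes use the energy of ATP to slide or evict nucleosomes. SMARCA4 (BRG1) and SMARCA2 (BRM) are their alternative ATPases, ARID1A and ARID1B the alternative large DNA-binding subunits of the canonical BAF form, and SMARCD3 (BAF60C) and DPF3 (BAF45C) accessory subunits known from heart and skeletal muscle, where SMARCD3 helps bring the complex to MYOD targets and DPF3 reads modified histone tails. H3K27ac marks active promoters and enhancers. MYOD drives skeletal muscle differentiation, and TWIST2 is a mesenchymal factor of the same basic helix-loop-helix class. Both bind E-boxes. Below, BRG1 names the antibody target, and the SMARCA4 window names the gene locus that encodes it.

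Promoter sequences of the genes were searched for E-boxes. RefSeq (GRCh38.p14) lists 14 promoters for the 6 genes, all 6 of which were matched by symbol. The E-box CANNTG, which reads the same on both strands, occurred in 61.8% of 35116 human promoters of the same 250 bases, and its form CAGCTG, counted within the CANNTG matches too, in 13.99% of them. The only ARID1A promoter held 1 E-box, of the CAGCTG form, in a sequence of 80.4% G and C. The first SMARCA4 promoter held no E-box at 82.4% G and C, and the first SMARCA2 promoter held 1 at 68.8%. These are shown because 1 of the 2 ATPase loci had H3K27ac peaks and the other none, and because ARID1A held the site where all 3 knockdown comparisons met. Each is the 250 bases before the annotated start on the + strand, with E-boxes in capitals:
ARID1A: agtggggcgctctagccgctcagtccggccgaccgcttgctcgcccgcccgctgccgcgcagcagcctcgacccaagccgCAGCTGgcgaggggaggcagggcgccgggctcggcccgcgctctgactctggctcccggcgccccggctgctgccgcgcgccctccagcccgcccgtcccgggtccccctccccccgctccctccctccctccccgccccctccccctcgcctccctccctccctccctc
SMARCA4: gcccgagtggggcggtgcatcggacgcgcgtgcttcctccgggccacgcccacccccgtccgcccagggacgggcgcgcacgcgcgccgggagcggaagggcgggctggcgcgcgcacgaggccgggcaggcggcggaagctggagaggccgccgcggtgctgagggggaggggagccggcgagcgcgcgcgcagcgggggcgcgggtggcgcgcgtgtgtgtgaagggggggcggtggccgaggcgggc
SMARCA2: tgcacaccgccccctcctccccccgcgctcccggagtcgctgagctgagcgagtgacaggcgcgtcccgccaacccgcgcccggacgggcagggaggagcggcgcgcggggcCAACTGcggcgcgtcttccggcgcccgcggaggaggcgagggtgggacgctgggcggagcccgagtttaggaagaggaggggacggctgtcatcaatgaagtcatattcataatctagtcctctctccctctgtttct
The other promoters held up to 3 E-boxes. ARID1B had 3 and 0, SMARCD3 2, 1 and 0, and DPF3 none in either promoter. The second SMARCA4 promoter had 0, and the remaining SMARCA2 promoters had 3, 1 and 1. First and second here mean only the order of listing. Since the peaks are in hg19, their position relative to these sequences was not analysed here. A match is only a match of letters.

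The lists differed between libraries before any locus is considered. H3K27ac lists held 36679 and 34932 peaks in the control and 48022 and 46822 in the KD libraries, MYOD lists 44974 and 43381 against 52510 and 48003, and BRG1 lists 11835 and 25013 against 12518 and 14676. BRG1 control 2 stood apart, with an immunoprecipitation efficiency of 1.83% against 0.65% to 0.88% in the other 3. BRG1 control 1 differed too, with the fewest peaks and a fragment length of 82 bp against 132 to 144 bp in the other 3. BRG1 total tags were 46690705 and 44810601 in the control and 36095336 and 41066933 in the KD libraries. The depth of the other libraries is unknown. MYOD peaks have 1 width per list (159 and 179 bp in the control, 213 and 225 bp in the KD libraries). The same holds for BRG1 (195 and 159 bp in the control, 141 and 145 bp in the KD libraries) and Ty1 (239 and 231 bp). For MYOD and Ty1 only presence is informative, and for BRG1 only presence and signal. The part of these list differences in the results below was not tested.

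**Figure D1:**
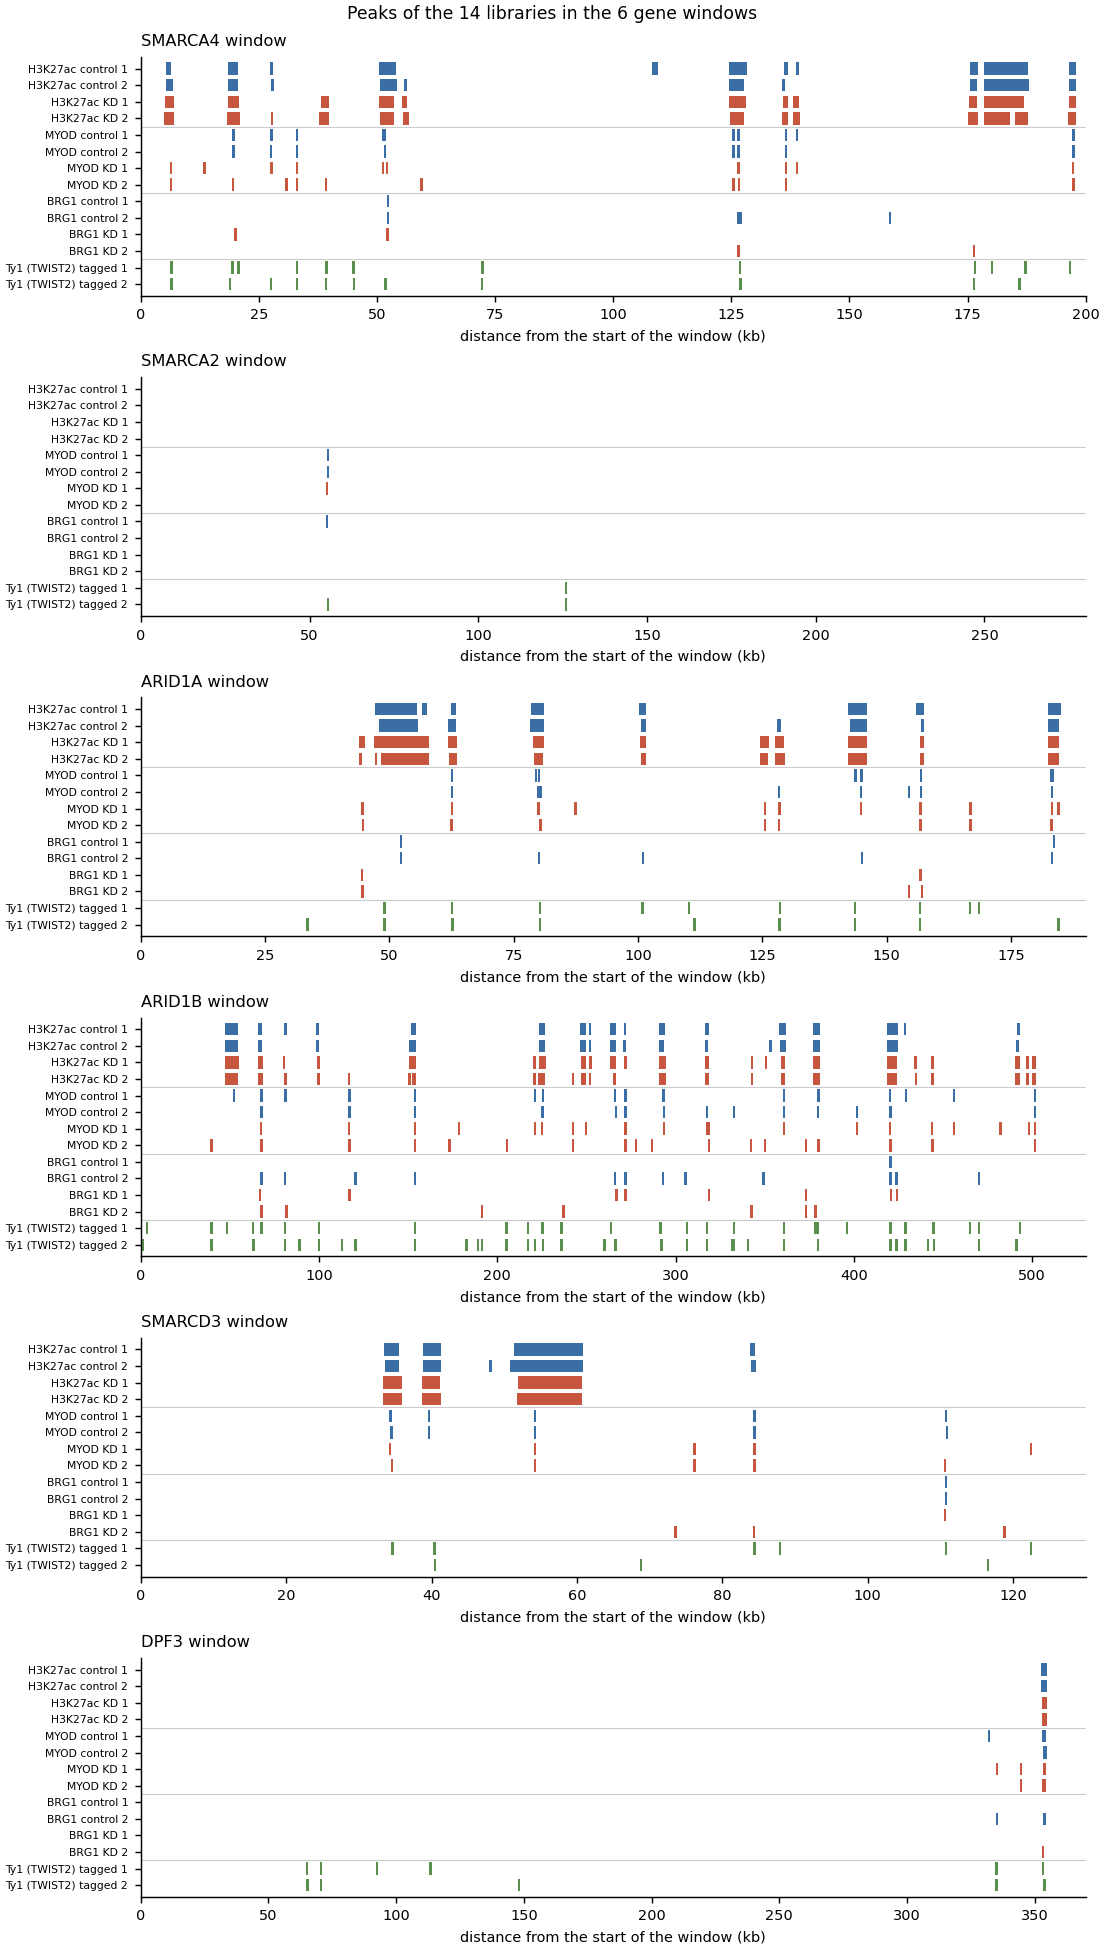
Peaks of the 14 libraries in each of the 6 windows, drawn by distance from the window's start in kb, with control in blue, KD in red and tagged TWIST2 in green (the thinnest peaks are drawn wider than they are to be visible). H3K27ac is spread over the SMARCA4, ARID1A and ARID1B windows, lies in 1 place near the end of the DPF3 window and is missing from the SMARCA2 window.

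H3K27ac formed 56 regions in 5 of the 6 windows. A peak in all 4 libraries was found at 33 of them (58.9%, against 49.1% of all H3K27ac regions of the genome): 8 in the SMARCA4 window, 7 in ARID1A, 14 in ARID1B, 3 in SMARCD3 and 1 in DPF3. KD-only regions, with a peak in both KD and no control library, numbered 9 (16.1%, against 19.8% genome-wide), of which 1 was in the SMARCA4, 2 in the ARID1A and 6 in the ARID1B window. A control-only region, with the reverse pattern, occurred once (1.79%, against 4.21%), in the SMARCD3 window. The member shares thus lay near those of the genome. With lists shortened to equal length by keeping the peaks listed first, 4 KD-only and 5 control-only regions were found. What orders the H3K27ac lists is not given in the sources used here, so these need not be the strongest peaks. With the upper fraction of 0.5 of each list, 3 were KD-only.

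**Figure D2:**
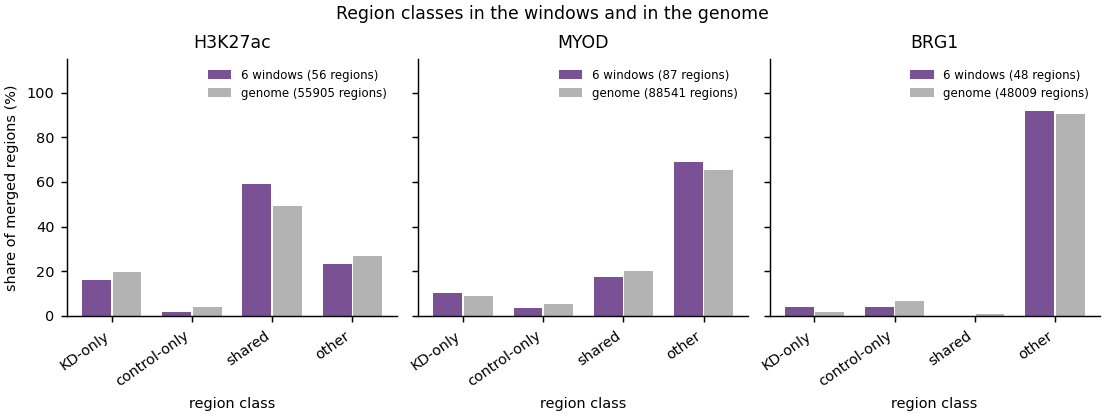
Share of merged regions, in percent, that are KD-only, control-only, shared by all 4 libraries or of any other pattern, for H3K27ac, MYOD and BRG1, in the 6 windows (purple) and in the genome (grey). The KD-only share of H3K27ac was 16.1% in the windows and 19.8% in the genome, and no BRG1 region of the windows was shared.

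Covered bases, the summed length of H3K27ac peaks, were higher in both KD libraries in 3 windows and lower in 2. In the SMARCA4 window the control libraries covered 26310 and 24767 bp and the KD libraries 27697 and 28988 bp, a ratio of 1.11. The ARID1A window had 22458 and 19961 bp against 27909 and 25790 bp, a ratio of 1.27. This was the highest ratio of the windows with H3K27ac peaks, and the genome had 1.27 as well. In the ARID1B window the values were 48112 and 48190 bp against 55060 and 52624 bp, a ratio of 1.12. The groups did not overlap in any of these. Of 8096 stretches of 250 kb with an H3K27ac peak, 67% were higher in both KD libraries and 16.6% lower. H3K27ac peak numbers were 11 and 10 against 11 and 13 for SMARCA4, 8 and 8 against 10 and 11 for ARID1A, and 17 and 16 against 25 and 24 for ARID1B. For SMARCD3 they were 4 and 5 against 3 and 3, and for DPF3 1 in each library. Peak numbers were higher in both KD libraries in 50.7% of the stretches and lower in 6.31%.

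In the SMARCD3 and DPF3 windows covered bases were lower in both KD libraries, as they were in 16.6% of the stretches of 250 kb. H3K27ac peaks in the SMARCD3 window covered 14559 and 15488 bp in control cells and 13773 and 14269 bp after knockdown, a ratio of 0.933. In the DPF3 window they covered 2357 and 2466 bp against 1985 and 1877 bp, a ratio of 0.801. Again the groups did not overlap. Over all 6 windows the ratio was 1.11, with 112334 ± 2068 bp (SD, n = 2) in the control and 124986 ± 2034 bp in the KD libraries, and over the genome it was 1.27. With 2 libraries against 2 the exact two-sided permutation test cannot give less than p = 0.333, which is the value of every window whose groups were separate. With lists of equal length the ratio in the SMARCA4 window became 0.979, and with the upper fraction of 0.5 of each list 0.958. Under these settings the ARID1A ratio was 1.18 and 1.26, and the ARID1B ratio 1.03 and 1.03. Windows longer by 50 kb at each end gave 1.01 for SMARCA4, where the groups overlapped, 1.18 for ARID1A and 1.13 for ARID1B. The SMARCD3 ratio stayed 0.933 with equal length, but the upper fraction gave 0.993 (exact permutation p = 0.667), where the groups overlapped. The DPF3 ratio, which rests on 1 H3K27ac region, stayed 0.801 under both. Over the 6 windows lists of equal length gave 1.03.

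**Figure D3:**
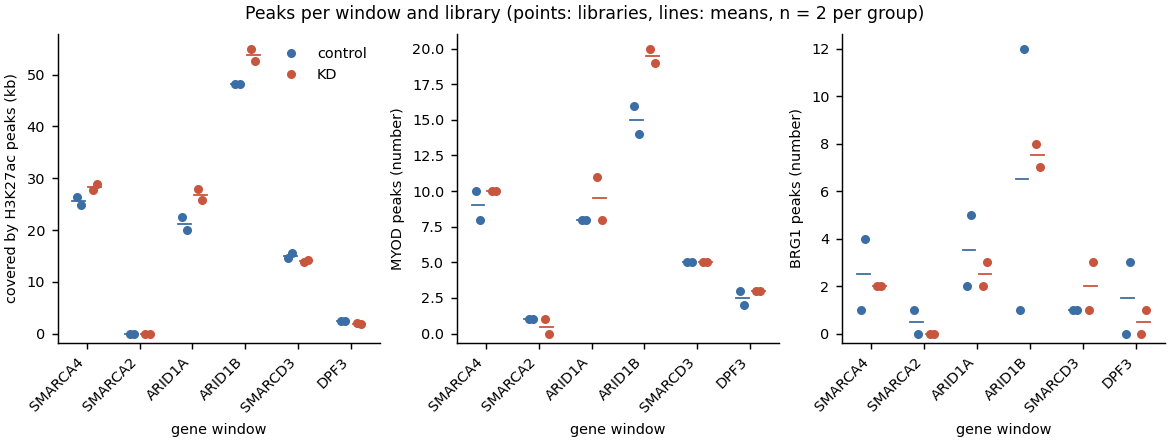
Bases covered by H3K27ac peaks in kb (left), number of MYOD peaks (middle) and number of BRG1 peaks (right) in each window. Points are libraries and lines the means of 2 per group. The control and KD points of H3K27ac are separate in every window that has peaks, higher in KD for SMARCA4, ARID1A and ARID1B and lower for SMARCD3 and DPF3. The BRG1 control points are 1 and 12 in the ARID1B window.

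No H3K27ac peak of any library lay in the SMARCA2 window, over its 280 kb. Of 12158 stretches of 250 kb, 33.4% held no H3K27ac peak. Other antibodies left 4 regions there. A MYOD region at chr9:2014850-2015238 had a peak in both control libraries and KD 1. A BRG1 peak of control 1 at chr9:2014804-2014998, with a signal of 3.86 tags per 10000000, and a Ty1 peak of 1 library overlapped it. The fourth, at chr9:2085673-2085944, was a TWIST2 region, which here means a peak in both Ty1 libraries. The locus of the second ATPase therefore had sparse peaks of MYOD, BRG1 and tagged TWIST2 and no called acetylation in either group.

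Peak width was then compared region by region. A linear model (limma) was fitted to the log2 covered bases of the 27442 H3K27ac regions found in all 4 libraries, with Benjamini-Hochberg adjustment over all of them and a threshold of 0.05. It called 22.6% of all such regions wider and 12.9% narrower in KD. Of the 33 regions in the windows, 2 were called wider and 3 narrower, and the median log2 difference was 0.03, against 0.07 over the genome. By position of the libraries alone, covered bases were higher in both KD libraries at 12 of 33 (36.4%, against 45.4% genome-wide) and lower in both at 11 (33.3%, against 29.8%). The ARID1B window had both extremes of the 33. At chr6:157313198-157316460 H3K27ac peaks covered 3156 and 3249 bp in control cells and 2284 and 1230 bp after knockdown (log2 difference -0.93, SE 0.310, limma adjusted p = 0.0805), and at chr6:157540107-157543177 they covered 1402 and 2160 bp against 2922 and 3071 bp (log2 difference 0.78, SE 0.222, limma adjusted p = 0.0561). Neither passed the threshold, although their groups did not overlap. The second did pass without control 1 (limma adjusted p = 0.0406) and without control 2 (limma adjusted p = 0.0203).

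Regions called wider lay in the SMARCA4 and SMARCD3 windows, 1 in each. In the SMARCA4 window, chr19:11038304-11040958 covered 2115 and 1974 bp in control cells and 2431 and 2655 bp after knockdown (log2 difference 0.31, SE 0.0814, limma adjusted p = 0.0458). In the SMARCD3 window, chr7:150923353-150925948 covered 2030 and 1890 bp against 2526 and 2576 bp (log2 difference 0.38, SE 0.0709, limma adjusted p = 0.0206), and a MYOD region of all 4 libraries lay in it at chr7:150924109-150924589. The SMARCA4 one held a MYOD region of 3 libraries that starts at chr19:11039290.

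Regions called narrower lay in the ARID1B, DPF3 and SMARCA4 windows, 1 in each. The ARID1B region chr6:157408174-157411913 fell from 3740 and 3418 bp to 2632 and 2532 bp (log2 difference -0.47, SE 0.0722, limma adjusted p = 0.0132), and TWIST2 was found in it at chr6:157410136-157410396. The only H3K27ac region of the DPF3 window, chr14:73392453-73394918, had the values already given for that window (log2 difference -0.32, SE 0.0717, limma adjusted p = 0.0321).

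None of these 5 calls held without each library in turn. Without KD 1 or without KD 2 none of the 5 passed, and no region of the genome did, although 9099 and 9220 regions had an unadjusted p below 0.05. Without control 1 or control 2 the SMARCA4 and DPF3 calls were lost, and without control 2 that of SMARCD3 too. With log2 values centred on each library's median, 1 region of the windows was called wider and 7 narrower, and 4766 and 5447 in the genome, against 6207 and 3552 without centring. Centring moved the median over all regions from 0.07 to -0.04. After centring the ARID1B region was still narrower (limma adjusted p = 0.00560), and the SMARCA4 region at chr19:11038304 was no longer called (limma adjusted p = 0.114).

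**Figure D4:**
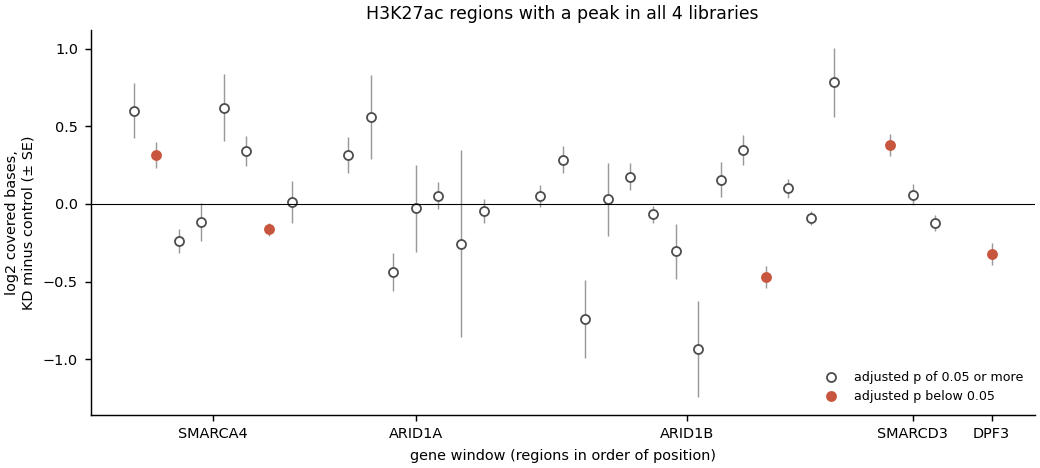
Log2 difference in H3K27ac covered bases, KD minus control, with its standard error, for the 33 regions of the windows that have a peak in all 4 libraries. The 5 filled points have a limma adjusted p below 0.05, 2 above and 3 below the line at 0. The SMARCA2 window has no such region.

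The widest shared regions of the ARID1A, ARID1B and SMARCD3 windows were not called. In the ARID1A window it was chr1:27016939-27028012, with 9470 and 7718 bp in control cells and 11074 and 10235 bp after knockdown (log2 difference 0.32, SE 0.114, limma adjusted p = 0.0968). The groups did not overlap, and the region was called without control 1 (limma adjusted p = 0.0437). TWIST2 lay in it at chr1:27018769-27019036, and no MYOD peak did. In the ARID1B window it was chr6:157097113-157105195, with 7283 and 7088 bp against 7889 and 7020 bp (log2 difference 0.05), where the groups overlapped. In the SMARCD3 window it was chr7:150940803-150950834, with 9383 and 10032 bp against 8786 and 9039 bp (log2 difference -0.12, limma adjusted p = 0.139, and 0.0421 after centring on library medians). A MYOD region of all 4 libraries lay there at chr7:150944037-150944295, at the 99.8 percentile of list position, and no TWIST2 or BRG1 peak did. List position is the place of a peak in its deposited list, and what orders the lists without scores is not given in the sources used here.

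The 9 H3K27ac regions found only after knockdown covered 501 to 2098 bp per KD library. The SMARCA4 window had 1, at chr19:11057685-11059891, with 1717 and 2073 bp in the KD libraries, and TWIST2 overlapped it at chr19:11058978-11059270. In the ARID1A window chr1:27013898-27015039 covered 1137 and 501 bp and chr1:27094549-27096305 covered 1757 and 1595 bp. Of the 6 in the ARID1B window the longest, at chr6:157549768-157551865, had 2098 and 1881 bp and overlapped a MYOD region of all 4 libraries at chr6:157550892-157551117. MYOD was thus called there in both groups and H3K27ac only in KD.

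The next longest in the ARID1B window was chr6:157269878-157271501, with 1539 and 1624 bp. At chr6:157493389-157494191, with 803 and 627 bp, a KD-only MYOD region (chr6:157493281-157493558) and TWIST2 (chr6:157494049-157494305) overlapped the acetylated region. The other 3, at chr6:157392046-157392673, chr6:157483850-157484937 and chr6:157546642-157547412, had no peak of another antibody. The single control-only H3K27ac region lay in the SMARCD3 window at chr7:150973851-150974578, with 680 and 628 bp in the control libraries. MYOD of all 4 libraries was found in it at chr7:150974252-150974484.

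At 1 ARID1A site all 3 antibodies had a region only in KD. The KD-only H3K27ac region chr1:27013898-27015039 held a KD-only MYOD region at chr1:27014362-27014727 and a KD-only BRG1 region at chr1:27014304-27014486. BRG1 signal there, in tags per 10000000 at the peak as given by the authors, was 4.43 and 4.63 in the KD libraries. No Ty1 peak overlapped the H3K27ac region, which stood at the 13.6 percentile of list position. Its 501 bp in KD 2 is the shortest peak width of that list. Shortening the lists to equal length removes it from the KD-only regions. The triple site was 1 of 9 KD-only H3K27ac regions in the windows, and 50 of 11079 (0.451%) in the genome had such a triple. One site does not give a rate for the loci.

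MYOD formed 87 regions over the 6 windows. Peak numbers were 10 and 8 in the control and 10 and 10 in the KD libraries for SMARCA4, 8 and 8 against 11 and 8 for ARID1A, and 5 in each library for SMARCD3. ARID1B had 16 and 14 against 20 and 19, the only window whose groups did not overlap. For DPF3 they were 3 and 2 against 3 and 3, and for SMARCA2 1 and 1 against 1 and 0. In stretches of 250 kb with a MYOD peak, 27.1% had more in both KD libraries and 8.53% fewer. Over the 6 windows the mean number was 40.5 in the control and 47.5 in the KD libraries, a ratio of 1.17, against 1.14 over the genome, and the smallest possible exact permutation p of 0.333 was reached. With lists of equal length the ratio was 1.01 (exact permutation p = 1), with the upper fraction of 0.5 of each list it was 1 (p = 1), and with windows longer by 50 kb at each end 1.08 (p = 0.667).

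KD-only MYOD regions numbered 9 (10.3%, against 9.1% genome-wide) and control-only regions 3 (3.45%, against 5.41%), while 15 were found in all 4 libraries (17.2%, against 20.3%). Of the 9 KD-only regions, 3 overlapped a KD-only H3K27ac region (33.3%, against 29.8% genome-wide): the 2 in the ARID1A window, the second at chr1:27095297-27095540, and the ARID1B region at chr6:157493281. The ARID1A window also had one at chr1:27136614-27136838, without H3K27ac. In ARID1B the others were chr6:157291796-157292020 and chr6:157367993-157368235, the latter in an H3K27ac region of all 4 libraries. DPF3 had 1 at chr14:73384211-73384464 and SMARCD3 1 at chr7:150966000-150966224, neither with H3K27ac. In the SMARCA4 window a KD-only MYOD region at chr19:11026083-11026399 met the TWIST2 region chr19:11026267-11026509, which stood at the 99.5 percentile of list position. When 1 library of a group sufficed and the other group had none, 33 regions were KD-only and 18 control-only, and without KD 1 or KD 2, when 1 library decides the group, 22 and 20 were KD-only.

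The 3 control-only MYOD regions lay in H3K27ac regions of all 4 libraries, as did 64.2% of such regions in the genome. They were chr19:11071480-11071682 in the SMARCA4, chr6:157274727-157274916 in the ARID1B and chr7:150929464-150929648 in the SMARCD3 window. The ARID1B one overlapped a TWIST2 region at chr6:157274735-157274993. KD 1 had MYOD peaks beside the SMARCA4 and ARID1B ones, at chr19:11071838-11072050 and chr6:157274503-157274715, in the same H3K27ac regions. They did not overlap the control peaks, but merging peaks within 500 bp joins them. MYOD was thus not absent from the SMARCA4 and ARID1B places in KD 1. KD 2 had no MYOD peak in those H3K27ac regions, and neither KD library had one in that of the SMARCD3 place. Leaving out 1 library in turn gave 6 to 12 control-only regions, since 1 library then decides a group.

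BRG1 formed 48 regions in the windows, and none had a peak in all 4 libraries (1.11% genome-wide did). Peak numbers were 1 and 4 in the control and 2 and 2 in the KD libraries for SMARCA4, 2 and 5 against 2 and 3 for ARID1A, and 1 and 12 against 8 and 7 for ARID1B. They were 1 and 1 against 1 and 3 for SMARCD3, 0 and 3 against 0 and 1 for DPF3, and 1 and 0 against 0 and 0 for SMARCA2. The groups overlapped in every window. Of stretches of 250 kb with a BRG1 peak, 4.82% had more in both KD libraries and 14.5% fewer. Over the 6 windows the mean was 15.5 ± 13.4 (SD, n = 2) in the control and 14.5 ± 2.12 in the KD libraries, a ratio of 0.935. It was 2.42 without control 2, 1.03 without KD 1 and 1.62 with lists of equal length, so no direction is given.

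Control-only BRG1 regions were found at 2 sites (4.17%, against 6.68% genome-wide), both in H3K27ac regions of all 4 libraries, as were 73.5% of such regions in the genome. The ARID1A site, chr1:27022035-27022229, lay in the widest H3K27ac region of that window and had signals of 14.1 and 11.8 tags per 10000000 in the control libraries. The ARID1B site, chr6:157469786-157470043, had 10.7 and 12.7, and TWIST2 covered it at chr6:157469760-157470051. KD 1 had a BRG1 peak beside that site at chr6:157470222-157470362, in the same H3K27ac region, with a signal of 6.09. It did not overlap the control peaks, but merging peaks within 500 bp joins it to them. The 2 control-only sites had the highest signals among the regions with a peak in both libraries of a group. KD-only regions were also 2 (4.17%, against 1.91%): the ARID1A triple site and chr6:157422400-157422621 in the ARID1B window, with signals of 4.99 and 5.60 and no H3K27ac peak. Signal is given only where a peak was called, so a library without a peak has no value. Without control 1, 20 regions were control-only, and without KD 1, 14 were KD-only.

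At 2 further sites both control libraries and KD 1 had a BRG1 peak. The SMARCA4 gene window held 1 such region, chr19:11071950-11072332, with signals of 6.43 and 6.92 in the control libraries and 4.99 in KD 1. In the SMARCD3 window chr7:151000510-151000840 had 7.71 and 8.93, and 4.43 in KD 1. KD 1 was below both control libraries at each. Its peaks were called with at most 1 tag per position, those of the control libraries with at most 2. The part of this setting in the difference was not tested. Genome-wide, a limma fit to log2 signal over the 534 BRG1 regions of all 4 libraries called 66.7% lower and 0.562% higher in KD, but none of these lies in the windows, so no member was tested. After centring on each library's median none was called lower and 4 higher, with 96 at an unadjusted p below 0.05.

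**Figure D5:**
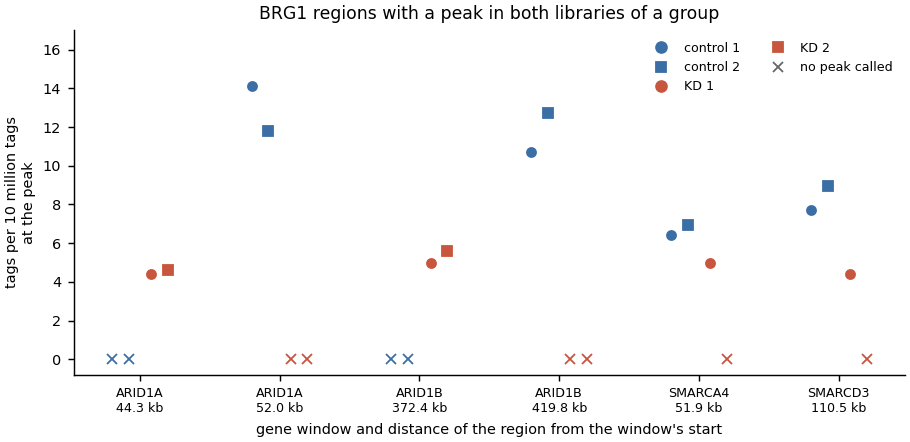
BRG1 signal, in tags per 10000000 at the strongest peak, in the 6 regions of the windows with a peak in both libraries of at least 1 group. Circles are replicate 1 and squares replicate 2, with control in blue and KD in red, and crosses on the line at 0 mark libraries without a called peak, not a measured 0. The 2 control-only sites reach 10.7 to 14.1, the 2 KD-only sites 4.43 to 5.60.

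Tagged TWIST2 was found in both Ty1 libraries at 36 of 91 Ty1 regions (39.6%, against 50.3% genome-wide). ARID1B held 18, SMARCA4 7, ARID1A 6, DPF3 3, and SMARCD3 and SMARCA2 1 each. Of the 36, 16 lay in an H3K27ac region of all 4 libraries (44.4%, against 33.2% of TWIST2 regions genome-wide), 19 met a MYOD region of any library (52.8%, against 48.1%) and 9 a BRG1 region of any library (25%, against 27.1%), though no BRG1 region of all 4 libraries (against 0.508%). No peak of the other 3 antibodies met 9 of them (25%, against 38.3%). These shares describe the 6 loci and were not tested.

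An H3K27ac region of any library met 21 of the 36 TWIST2 regions (58.3%, against 50.3% genome-wide). Every TWIST2 region of the ARID1A window met an H3K27ac region, 5 of them one of all 4 libraries. None of the 3 in the DPF3 window did. The DPF3 region chr14:73374594-73374832, at the 98.1 percentile of list position, met MYOD and BRG1 peaks of some libraries, and the other 2, chr14:73104654-73105014 and chr14:73110046-73110287, met no peak. In the SMARCD3 window the single TWIST2 region, chr7:150930221-150930500, lay in the shared H3K27ac region chr7:150928651-150931330, which covered 2466 and 2437 bp in control cells and 2461 and 2654 bp after knockdown.

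MYOD and TWIST2 met on acetylated chromatin at 3 of the 36 TWIST2 regions, with each antibody found in all of its libraries, against 13% of TWIST2 regions genome-wide. Counted without H3K27ac, 4 of the 36 met a MYOD region of all 4 libraries (11.1%, against 17.2%). Both ARID1A sites were MYOD regions of all 4 libraries, chr1:27032261-27032527 and chr1:27126558-27126876, with TWIST2 at chr1:27032382-27032675 and chr1:27126475-27126734. H3K27ac around the first covered 956 and 1581 bp in control cells and 1883 and 1745 bp after knockdown (log2 difference 0.56, SE 0.268, limma adjusted p = 0.172). At the second it covered 1610 and 501 bp against 752 in each KD library, and the groups overlapped. The other was in the ARID1B window, with MYOD at chr6:157203183-157203419 and TWIST2 at chr6:157203135-157203388, at the 99.3 and 99.6 percentiles of list position. H3K27ac there covered 2514 and 3913 bp against 2995 and 3418 bp, again with overlapping groups. In the SMARCA4 window MYOD of all 4 libraries (chr19:11052771-11053038) and TWIST2 (chr19:11052798-11053063) met without any H3K27ac peak.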

How the data were processed

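The members and gene list were chosen with earlier results of these data known. Per the submitters' processing notes, the tools were HOMER 4.4, Bowtie2 2.3.4.3, bedtools 2.29.2 and SAMtools 0.1.19, and the build was hg19. The deposited H3K27ac, MYOD and Ty1 lists hold chromosome, start and end only. Per the file headers, BRG1 peaks were called by HOMER in factor style (false discovery rate 0.001) where they held at least 4 times the tags of the input and of the surrounding 10000 bp, allowing at most 1 tag per position in KD 1 and 2 in the other libraries. The authors' deposited signal is tags per 10000000 at the peak, their score ranks peaks within a list, and their fold ratio over input was not used further.

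Peaks of an antibody that overlapped by at least 1 bp were merged over its libraries. A library had a region if it had a peak in it. Covered bases were tested with limma 3.58.1 in R 4.3.3 (trend and robust, Benjamini-Hochberg, 0.05). A run on simulated data gave every region the same independent noise, unlike the real regions, so it is no support for the calls. Window values were tested by an exact permutation test. Stretches of 250 kb over the genome gave the background for windows. Python 3.11.15, numpy 2.4.6, pandas 2.3.3, scipy 1.17.1 and matplotlib 3.10.9 were used. The named regions were the widest shared H3K27ac region of each window (that of SMARCA4, one of the 3 called narrower, is not reported here), the KD-only and control-only regions (up to 5 per window, except that the 6 of H3K27ac in ARID1B are all given, 1 of them outside the rule), BRG1 regions in both libraries of a group, sites where several antibodies met, and, chosen after their values were seen, the other regions called by limma, the 2 extremes of ARID1B and the TWIST2 regions of DPF3, SMARCA2 and SMARCD3. Other SWI/SNF subunit genes were not analysed here, since no hg19 annotation was used.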

Additional observations from a re-analysis of the deposited data

How the results depend on the processing

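Of 252 results under another setting, 165 kept their direction, side of the threshold or size, 56 moved, 21 lost and 3 gained significance and 7 changed direction. With lists of equal length, KD-only and control-only H3K27ac regions in the windows became 4 and 5, control-only MYOD 5, the SMARCA4 window's H3K27ac ratio 0.979 and the BRG1 peak ratio 1.62. With the upper fraction of 0.5 of each list, KD-only H3K27ac regions became 3, control-only MYOD 5, shared MYOD 9, KD-only BRG1 1 and the SMARCA4 window's ratio 0.958. Both settings keep the highest scores for BRG1. For the lists without scores they keep the peaks listed first, which need not be the strongest. When 1 library of a group sufficed and the other group had none, control-only H3K27ac regions became 5, KD-only and control-only MYOD 33 and 18, and KD-only and control-only BRG1 21 each. When a peak had to cover at least 0.5 of the merged region, a rule added after seeing the data, control-only H3K27ac regions became 3. Requiring 0.5 of the shorter of peak and region changes nothing by construction. TWIST2 regions became 91 with a peak in at least 1 Ty1 library, 40 of them at shared H3K27ac, and 3 met shared H3K27ac with centres within 200 bp.

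Centring each library on its median gave 5447 regions narrower in the genome, 1 wider and 7 narrower in the windows, 0 lower BRG1 regions, and a log2 difference of -0.0602 at the widest ARID1B region. Leaving out 1 library gave 10 to 12 KD-only and 2 to 3 control-only H3K27ac regions, 10 to 22 KD-only and 6 to 12 control-only MYOD regions, 2 to 14 KD-only, 2 to 20 control-only and 0 to 2 shared BRG1 regions, 62 to 65 TWIST2 regions and a BRG1 peak ratio of 0.58 to 2.42. It gave 0 to 5175 regions wider and 0 to 1886 narrower in the genome, 0 to 3 wider and 0 to 1 narrower in the windows, 0 to 3 higher and 180 to 280 lower BRG1 regions, and -0.0335 (without KD replicate 1) to 0.135 at the widest ARID1B region. Leaving out a library leaves fewer samples, and for the other settings the cause was not tested.

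With the replicate number as a block, 3 regions of the windows were called wider and 1 narrower, 4943 and 2669 in the genome, and 0 BRG1 regions higher (256 lower, and 349 at an unadjusted p below 0.05). Deviations of same-numbered libraries correlated at -0.000575 for H3K27ac and -0.0132 for BRG1, so no pairing by number was visible in these values. The labels do not say whether same-numbered libraries belong together. The block also brought the widest ARID1A region (limma adjusted p = 0.0479) and chr6:157540107-157543177 (0.0476) past the threshold.

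Presence was read from thresholded lists. A missing peak does not show missing signal, and width could not be told apart from depth or calling threshold. No depth is known for H3K27ac, MYOD and Ty1, so counting error could not be given for them. With 2 libraries per group no single window can pass an exact test.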
